A study of Mus musculus with 8 samples.

Results

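The mitochondrial respiratory chain and ATP synthase subunit genes were followed through mouse embryonic lung mesenchyme, freshly dissected or kept in culture. The members were all probe sets whose single platform gene symbol began with Uqcr, Atp5, Cox4 to Cox8, or Nduf followed by a, b, c, s or v and a digit, or was Sdha, Sdhb, Sdhc or Sdhd. This gave 164 of the 45101 probe sets on the array, for 81 genes, and each of the 81 had at least 1 probe set past the filter on low signal, among 16112 genes tested. Complex I contributed 33 genes, complex II 4, complex III 8, complex IV 19 and the ATP synthase, called complex V, 17. After 12 h in control medium, Ndufs1, Uqcrfs1 and Atp5b, which encode working subunits of complexes I, III and V, had fallen relative to uncultured stalk. These were 3.70% of the members, against 9.26% of all genes. In Wnt1 medium Ndufs1 alone of the members had fallen, or 1.23% against 6.88% of all genes. With the deposited scaling of the arrays 15 members had risen in control culture, or 18.5% against 17.1% of all genes, and 14 in Wnt1 culture, or 17.3% against 9.35% of all genes. No member passed the test between branch tip and stalk or between Wnt1 and control medium.

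All groups were lung mesenchyme microdissected from CD1 mouse embryos at stages e11.5 to e12.5. The groups were branch stalk cultured for 12 h on tissue-culture plastic with 400 ng/ml Wnt1, a secreted signalling protein (Wnt1 culture), branch stalk cultured in the same way in control growth medium (control culture), uncultured branch tip (tip) and uncultured branch stalk (stalk). Each group had 2 arrays, and the labels do not say that they came from separate litters, so the p-values cover the spread from array to array alone, and that may be technical. The number of arrays limits the precision of every value.

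The chain sits in the inner mitochondrial membrane. Complex I takes electrons from NADH and complex II from succinate, complex III passes them to cytochrome c, and complex IV hands them to oxygen. Complexes I, III and IV pump protons as they do so, and the ATP synthase lets the protons back through and makes ATP. Each complex combines a few subunits that carry the reaction with smaller subunits that build and steady it, and several small subunits of complex IV exist as heart, muscle or testis isoforms. The subunits encoded by mitochondrial DNA are outside the rule, so all members are nuclear genes.

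Signals are the authors' linear array values, scaled to the same trimmed mean on every array, and a fold change is on the log2(signal + 44) scale. The 4 cultured arrays stood apart from the uncultured arrays. Their median signal over all probe sets was 149 to 296 in Wnt1 culture and 209 to 299 in control culture, against 86.3 to 99.8 in tip and 76.5 to 95.5 in stalk. The ratio of the 3' to the 5' probe set of Actb, a sign of RNA quality, was 6.81 to 21.2 in Wnt1 culture and 23.3 to 24.4 in control culture, against 3.65 to 3.84 in tip and 2.02 to 4.52 in stalk. That of Gapdh was 9.73 to 9.93 in Wnt1 culture and 10.5 to 17.8 in control culture, against 3.28 to 4.86 in tip and 3.10 to 5.87 in stalk. The members summed to 4.61% to 6.13% of the signal of all genes in Wnt1 culture, 4.41% to 5.05% in control culture, 3.15% to 3.53% in tip and 3.05% to 3.36% in stalk. All 10 mesenchyme markers examined, among them Tbx4 and Tcf21, were above 299, the highest array median, on every tip and stalk array. In each culture comparison over stalk 6 of these 10 fell, and 0 rose in Wnt1 culture and 1 in control culture. Their summed signal was 27557 to 43604 in Wnt1 culture and 37336 to 61869 in control culture, against 59726 to 68014 in stalk. Of 9 macrophage markers 4 rose in each, with sums of 9973 to 11164 in Wnt1 culture and 12010 to 19874 in control culture, against 3765 to 4283 in stalk. Of 7 endothelial markers tested 3 fell in Wnt1 culture and 4 in control culture, and of 10 epithelial markers 2 and 3 rose. Of all genes, 9.35% rose and 6.88% fell in Wnt1 culture over stalk, and 17.1% rose and 9.26% fell in control culture over stalk. Some macrophage and epithelial markers, Fcgr1 and Nkx2-1 among them, passed the filter on low signal only with cultured arrays counted. Calls of such markers support nothing. The part of these shifts in the member values was not tested. In such bulk tissue, fewer cells of a type and less RNA per cell cannot be told apart.

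Some members share short letter runs in their promoters. RefSeq promoter windows for GRCm38.p6, 250 bases before to 50 bases after the start, were at hand for 66 of the 81 genes, in 71 windows. The letters GCGCATGC, searched on both strands as the core of the NRF1 site, were in 9 of these 71 windows, or 12.7%, against 2.71% of all 32851 windows. YY1's GATGGCGG was in 8.45% of member windows against 1.70% of all, GABPA's CCGGAAGT in 7.04% against 3.89%, and ESRRA's CAAGGTCA in 5.63% against 1.56%. NRF1, GABPA, YY1 and ESRRA are transcription factors known for acting on genes of mitochondrial proteins. A match is a description of the letters and not evidence of binding. The 160 bases before the start of 4 NRF1-letter holders, from complexes I, II and V, are shown because they hold the motif found in the most member windows of the 4 searched, with the matches in capitals. They lie at chr15:82354292-82354451, minus strand (Ndufa6), chr4:140961111-140961270, plus strand (Sdhb), chr15:102671048-102671207, minus strand (Atp5g2) and chr5:108434400-108434559, minus strand (Atp5k). In Atp5g2 and Atp5k a match on the plus strand of the window overlaps a match on its minus strand.
Ndufa6: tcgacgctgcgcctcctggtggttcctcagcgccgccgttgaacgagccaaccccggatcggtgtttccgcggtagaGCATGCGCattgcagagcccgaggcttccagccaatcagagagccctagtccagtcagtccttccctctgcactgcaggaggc
Sdhb: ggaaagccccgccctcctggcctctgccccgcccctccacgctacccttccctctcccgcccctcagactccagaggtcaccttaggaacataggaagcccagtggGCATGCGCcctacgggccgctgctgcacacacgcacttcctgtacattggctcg
Atp5g2: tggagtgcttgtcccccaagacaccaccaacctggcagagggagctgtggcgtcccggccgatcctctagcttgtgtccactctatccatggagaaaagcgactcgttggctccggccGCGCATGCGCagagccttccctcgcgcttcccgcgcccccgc
Atp5k: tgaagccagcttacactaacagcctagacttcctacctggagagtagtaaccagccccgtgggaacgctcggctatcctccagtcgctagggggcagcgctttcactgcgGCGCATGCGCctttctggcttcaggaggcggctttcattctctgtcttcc

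These 4 genes had values on both sides of 0 in culture. The log2 fold change of control culture over stalk was 0.56 for Ndufa6, -0.73 for Sdhb, -0.50 for Atp5g2 and 1.16 for Atp5k, and none of the 4 passed the test there. None of the 13 members found with any of the 4 motifs in these 160 bases was called in control culture over stalk. There 17.1% of all genes were called higher and 9.26% lower. Windows on a single chromosome were left out of this search, so the 13 need not be all such members. Atp5k was called in Wnt1 culture over stalk with 1.54 ± 0.48 (SE) (adjusted p = 0.0482), where 9.35% of all genes were called higher.

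Tip and stalk mesenchyme had nearly the same signals for these genes. None of the 81 members passed the test between tip and stalk by limma, against a background of 0% of all genes in either direction, and none had an unadjusted p under 0.05, against 91 of all genes. The median member log2 fold change of tip over stalk was 0.07, against 0.01 over all genes, and 68 of 81 members lay within 0.25 of no difference, or 84.0%, against 57.7% of all genes. Both tip arrays exceeded both stalk arrays in 11 of 81 members, or 13.6% against a background of 18.2%, and both lay below in 5, or 6.17% against 16.2%. The 3 members with the smallest p were dim in these groups. Ndufs5, an accessory subunit of complex I, read 191 and 61.3 in tip, against 110.0 and 879 in stalk, a log2 fold change of -1.26 ± 0.70 (SE) with an adjusted p of 1, and stalk replicate 2 alone stood high. Ndufa4l2, a relative of the complex IV subunit Ndufa4, read 19.8 and 54 in tip, against 163 and 98.2 in stalk, a log2 fold change of -1.12 ± 0.70 (SE). Cox6a2, the heart and muscle isoform of a complex IV subunit, read 155 and 127 in tip, against 68.4 and 67.8 in stalk, with a log2 fold change of 0.72 ± 0.49 (SE). The groups did not overlap for Ndufa4l2 and Cox6a2, yet neither passed the test.

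**Figure D1:**
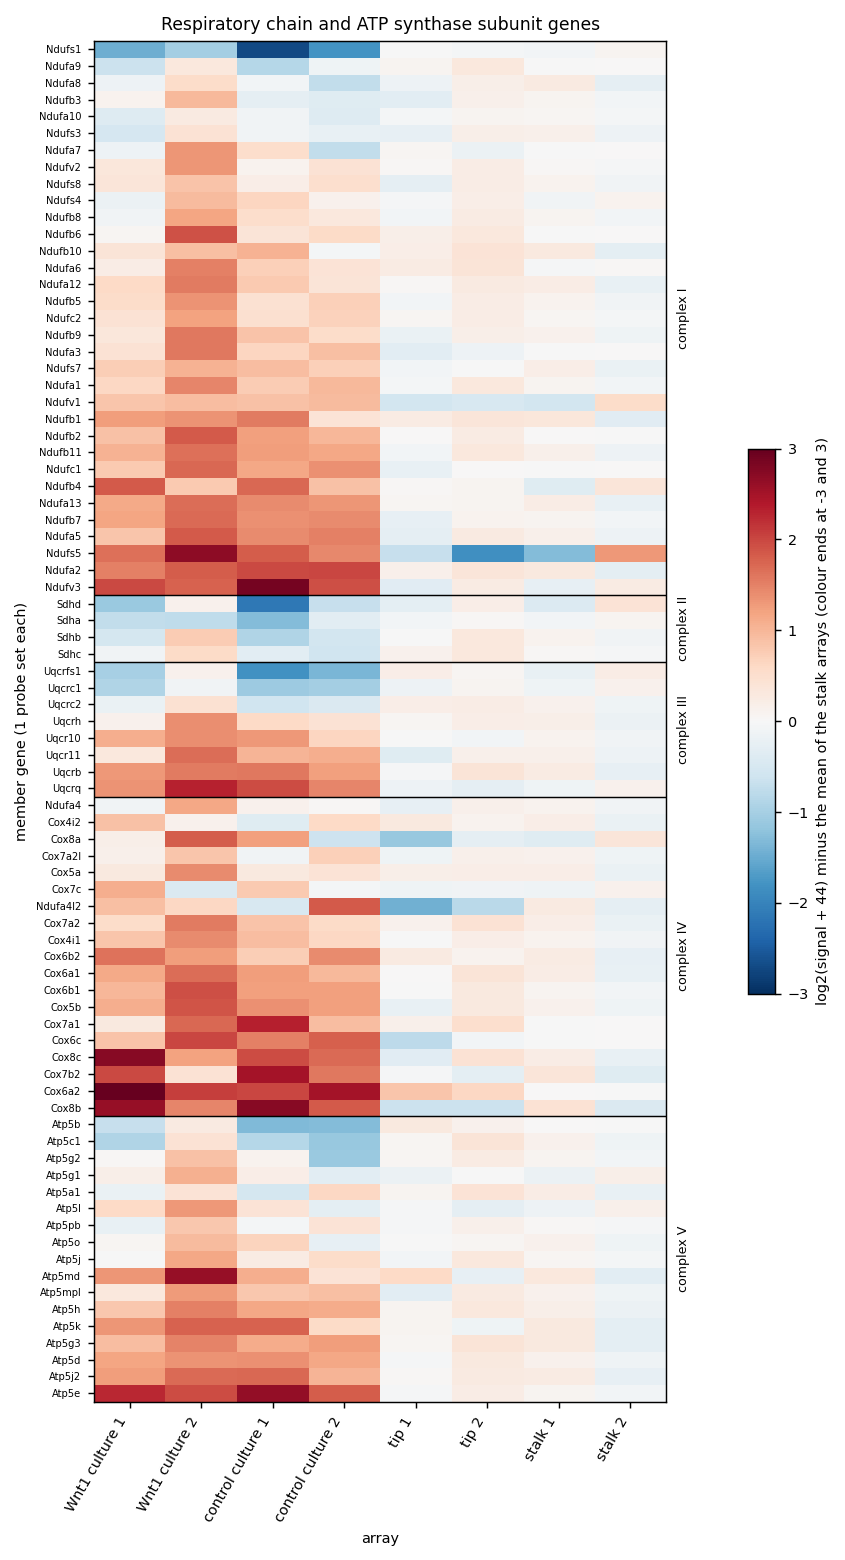
Each row is 1 of the 81 member genes and each column 1 array; colour gives log2(signal + 44) minus the mean of the stalk arrays. Tip and stalk columns are pale for most rows, the cultured columns are mostly red, and Ndufs1, Uqcrfs1 and Atp5b are blue in both control culture arrays.

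Members moved in both directions in culture. Against stalk, 15 of 81 members rose in control culture, or 18.5% against a background of 17.1% of all genes, and 3 fell, or 3.70% against 9.26%. In Wnt1 culture 14 members rose against stalk, or 17.3% against a background of 9.35%, and 1 fell, or 1.23% against 6.88%. Both comparisons use the same stalk arrays, so they are given side by side and not as support for each other. The share that rose in control culture was thus near that of all genes. The filter asked for a signal over 96.6 on 2 arrays of any group, and 5 members, or 6.17%, passed it only with the cultured arrays counted, against 30.4% of all genes. Such genes were let in by the arrays on which they are high, and Cox8b and Cox7b2 are the called ones among the 5, so their calls support nothing. Among genes that passed on uncultured arrays alone, a restriction chosen after the values were seen that in turn favours genes high in uncultured tissue, 13 of 76 members were called higher in control culture, or 17.1% against 9.59% of all such genes, and 3 lower, or 3.95% against 13.3%. In Wnt1 culture 13 were called higher, or 17.1% against 5.86%, and 1 lower, or 1.32% against 9.89%. The median member log2 fold change was 0.95 in Wnt1 culture over stalk, against 0.35 over all genes, and 0.68 in control culture over stalk, against 0.45 over all genes. These levels depend on how arrays are scaled: with each array centred on its own median the members' medians were -0.03 and -0.51, against -0.64 and -0.74 over all genes, and with quantile normalization 0.64 and 0.44, against 0.03 for both over all genes. Relative to all genes the members' median lay 0.23 higher in control culture over stalk with the deposited scaling, 0.23 higher when centred and 0.41 higher with quantile normalization. The numbers of members called higher and lower in control culture over stalk were 15 and 3 as deposited, 16 and 4 with quantile normalization and 0 and 7 when centred. In Wnt1 culture over stalk they were 14 and 1, 12 and 0, and 1 and 1. Without stalk replicate 1, or without stalk replicate 2, 0 members were called in either direction in control culture over stalk, and the 15 and the 3 kept their direction. Without control culture replicate 1 there were 4 higher and 1 lower, without either tip array 7 and 2, without Wnt1 culture replicate 1 28 and 6, and without Wnt1 culture replicate 2 29 and 6. In Wnt1 culture over stalk the members called higher numbered 0 without stalk replicate 1, 1 without stalk replicate 2, 6 without either tip array and 25 without either control culture array, and the median was 0.55 without Wnt1 culture replicate 2.

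**Figure D2:**
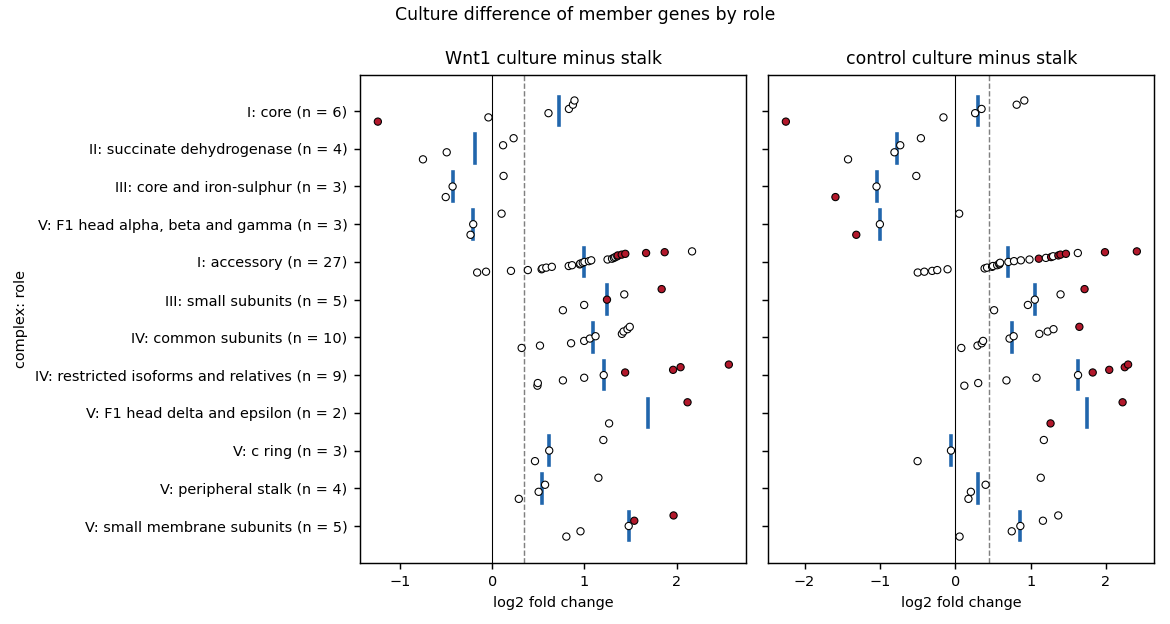
Points are member genes by complex and role, with the log2 fold change of Wnt1 culture over stalk on the left and of control culture over stalk on the right; red points passed the test, blue bars are medians and the dashed line is the median of all genes (0.35 and 0.45). The 3 core and iron-sulphur genes of complex III have a median of -0.43 on the left and -1.05 on the right, and the 5 small subunit genes of complex III 1.24 and 1.05; with arrays centred on their medians the small subunits move to 0.26 and -0.13.

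In complex I 7 genes rose and 1 fell in control culture over stalk, or 21.2% and 3.03% of its 33 genes, against 17.1% and 9.26% of all genes. The 7 were among the 27 accessory subunit genes, or 25.9% of them, with a median log2 fold change of 0.70, and 22 of 27 were above 0. Of the 6 nuclear core subunit genes, which carry or hold the flavin and iron-sulphur centres, none rose and 1 fell, with a median of 0.31, and 4 of 6 were above 0. The roles were not tested against each other. Centred on array medians, these medians were -0.48 and -0.88, and with quantile normalization 0.57 and 0.38, with 24 of 27 and 5 of 6 above 0. The core gene that fell was Ndufs1, the large iron-sulphur subunit of the NADH-oxidising arm. Its signal was 765 and 1049 in Wnt1 culture, 294 and 599.7 in control culture, 2160.3 and 2088 in tip and 2049 and 2310.1 in stalk. All cultured arrays lay below all uncultured arrays, with a log2 fold change of -1.24 ± 0.37 (SE) in Wnt1 culture over stalk (adjusted p = 0.0421) and -2.25 ± 0.37 (SE) in control culture over stalk (adjusted p = 0.00525). The other 5 core genes lay between -0.16 (Ndufs3) and 0.92 (Ndufv1) in control culture over stalk and did not pass the test.

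The accessory gene with the largest change of complex I in control culture over stalk was Ndufv3, which encodes a small subunit bound near the NADH site. Its signal was 11688 and 10076 in Wnt1 culture, 21947 and 11365 in control culture, 2322 and 3476 in tip and 2476 and 3486 in stalk. Every cultured array was above every uncultured array, with a log2 fold change of 1.87 ± 0.40 (SE) in Wnt1 culture (adjusted p = 0.0152) and 2.41 ± 0.40 (SE) in control culture (adjusted p = 0.00525), each over stalk. Ndufa2, another accessory subunit of the same arm, read 24315 and 29866 in Wnt1 culture, 33341 and 33857 in control culture, 9369 and 10952 in tip and 10354 and 6897 in stalk. The 4 cultured arrays were again the 4 highest, with log2 fold changes of 1.67 ± 0.41 (SE) (adjusted p = 0.0222) in Wnt1 culture and 1.99 ± 0.41 (SE) (adjusted p = 0.01) in control culture. Ndufa5, Ndufb7, Ndufa13, Ndufc1 and Ndufb2 were the other accessory genes called in control culture, with log2 fold changes of 1.47, 1.40, 1.37, 1.27 and 1.11. Ndufa9 and Ndufa8, accessory genes that did not pass, had -0.50 and -0.41 there. In Wnt1 culture over stalk the largest value of an accessory gene was that of Ndufs5, 2.17 ± 0.70 (SE), which did not pass (adjusted p = 0.0523).

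Complex II, succinate dehydrogenase, was the complex with no called member in either culture comparison. Its 4 genes were below 0 in control culture over stalk with the deposited scaling, with a median log2 fold change of -0.77, and 3 of 4 were below 0 with quantile normalization (median -0.47) and 4 of 4 when centred (median -1.95). Sdha, the flavin subunit that oxidises succinate, read 3154 and 3137 in Wnt1 culture and 2152 and 4231 in control culture, against 5013 and 5649.6 in stalk. Sdhb, the iron-sulphur subunit, read 6100.4 and 14919 in Wnt1 culture and 4661 and 5975 in control culture, against 9422 and 8204 in stalk. Wnt1 culture replicate 2 stood above both stalk arrays for Sdhb and below both for Sdha. Sdhc, a membrane anchor, read 2101 and 3370.0 in Wnt1 culture and 1802 and 1481 in control culture, against 2300.0 and 2221 in stalk, and its partner anchor Sdhd read 615 and 1530.5 in Wnt1 culture and 279 and 839 in control culture, against 1034 and 1862 in stalk. By these probe sets, the ones of highest mean, both control culture arrays were below both stalk arrays for all 4 genes, as for 25.4% of all genes. The log2 fold changes were -0.81 ± 0.36 (SE), -0.73 ± 0.43 (SE), -0.46 ± 0.33 (SE) and -1.42 ± 0.53 (SE), with adjusted p of 0.108, 0.208, 0.303 and 0.0625, for Sdha, Sdhb, Sdhc and Sdhd. In Wnt1 culture over stalk the values were -0.75, 0.12, 0.23 and -0.49. In uncultured tip the 4 genes were within 0.23 of stalk. The second probe sets of both anchors ran the other way. That of Sdhc read 1338 and 1049 in Wnt1 culture and 1714 and 827 in control culture, against 589 and 577 in stalk, so that all cultured arrays were above stalk, with a log2 fold change of 0.98 in control culture (adjusted p = 0.0853 over all probe sets). That of Sdhd read 1245 and 1520 in Wnt1 culture and 1327 and 810.1 in control culture, against 451 and 839 in stalk, with 0.71 (adjusted p = 0.202), and its control culture and stalk arrays overlapped. The direction of Sdhc and Sdhd in control culture thus depended on the probe set.

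In complex III 1 of 8 genes fell and 1 rose in control culture over stalk, or 12.5% each way, against 9.26% and 17.1% of all genes. Uqcrfs1, the Rieske iron-sulphur protein, read 2659 and 5888 in Wnt1 culture, 1494 and 2037 in control culture, 6193 and 5612 in tip and 4597 and 6221 in stalk. Both control culture arrays were the lowest of the 8, and the log2 fold change over stalk was -1.59 ± 0.40 (SE) (adjusted p = 0.0181). Of the Wnt1 culture arrays, replicate 1 lay below both stalk arrays and replicate 2 between them, with -0.43 ± 0.40 (SE) (adjusted p = 0.439). Uqcrc1 and Uqcrc2, the large core proteins, had log2 fold changes of -1.05 ± 0.37 (SE) and -0.52 ± 0.40 (SE) in control culture over stalk, with adjusted p of 0.0513 and 0.331. Of the 5 small subunit genes, only Uqcrq passed in control culture over stalk. Uqcrq, which sits beside cytochrome b, read 10987 and 21329 in Wnt1 culture, 16700.3 and 11852 in control culture, 3797 and 3502 in tip and 3908 and 4633 in stalk. The cultured arrays were all above the uncultured ones, with 1.84 ± 0.40 (SE) in Wnt1 culture (adjusted p = 0.0153) and 1.71 ± 0.40 (SE) in control culture (adjusted p = 0.0143). The others, Uqcrb, Uqcr11, Uqcr10 and Uqcrh, had log2 fold changes between 0.51 and 1.40 in control culture over stalk. The small subunits' median of 1.05 turned to -0.13 when centred, and the roles were not tested against each other.

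**Figure D3:**
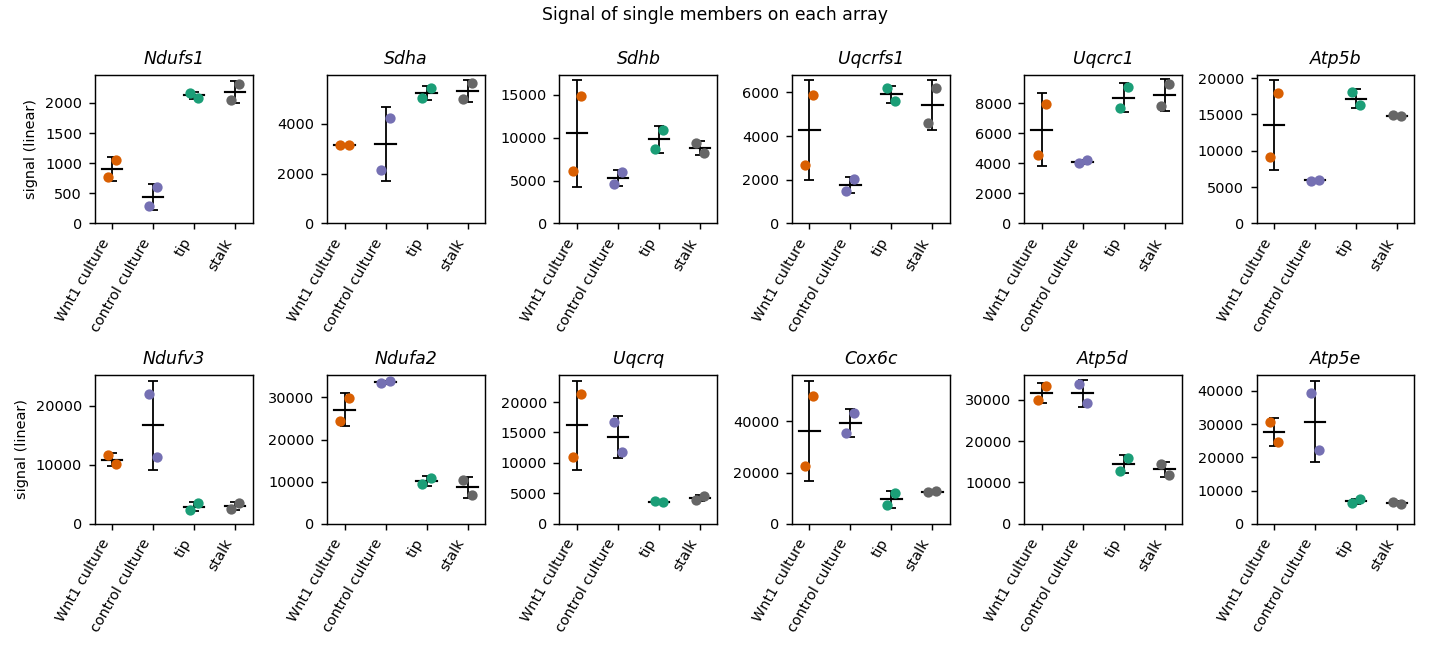
Linear signal of 12 member genes on each array, with 2 points a group and black bars for the mean and SD. In the upper row Ndufs1, Uqcrfs1 and Atp5b are lowest in control culture, and in the lower row Ndufv3, Ndufa2, Uqcrq, Cox6c, Atp5d and Atp5e are higher on both control culture arrays than on either stalk array.

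In the ATP synthase 2 of 17 genes rose and 1 fell in control culture over stalk, or 11.8% and 5.88%, against 17.1% and 9.26% of all genes. All 3 encode parts of the catalytic head or its shaft, and the roles were not tested against each other. Atp5b, the beta subunit that makes ATP, read 9161 and 17969 in Wnt1 culture, 5876 and 5974 in control culture, 18096 and 16238 in tip and 14875 and 14740.3 in stalk. Control culture was the lowest group, with a log2 fold change over stalk of -1.32 ± 0.41 (SE) (adjusted p = 0.0343), and Wnt1 culture overlapped stalk, with -0.21 ± 0.41 (SE) (adjusted p = 0.722). Atp5c1, the gamma subunit that turns inside the head, read 10669 and 26733 in Wnt1 culture and 10972 and 8949 in control culture, against 21749.8 and 18188 in stalk. Both of its control culture arrays lay below both stalk arrays, without passing the test (adjusted p = 0.124). Atp5a1, the alpha subunit, had a log2 fold change of 0.05 ± 0.49 (SE) in control culture over stalk (adjusted p = 0.945). Atp5e and Atp5d, the epsilon and delta subunits of the central shaft, rose. Atp5e read 30611 and 24677 in Wnt1 culture, 39364 and 22126 in control culture, 6194 and 7356 in tip and 6689 and 5937 in stalk. No cultured array overlapped an uncultured one, with 2.12 ± 0.41 (SE) in Wnt1 culture (adjusted p = 0.0105) and 2.22 ± 0.41 (SE) in control culture (adjusted p = 0.0074). Atp5d had 1.26 ± 0.41 (SE) in control culture (adjusted p = 0.0415). These calls of Atp5e and Atp5d in control culture were lost with centring, where their pair kept a median of 0.56.

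The c ring, which turns as protons pass, is encoded by Atp5g1, Atp5g2 and Atp5g3, separate genes for the same mature protein. Atp5g1 read 3953 and 7408 in Wnt1 culture and 4063 and 2796 in control culture, against 3129 and 3942 in stalk. Atp5g2 read 5813 and 10495 in Wnt1 culture and 6121 and 2583 in control culture, against 6002 and 5324 in stalk. Atp5g3 read 43809.6 and 65197 in Wnt1 culture and 49906 and 54902 in control culture, against 28256 and 18991 in stalk. Both control culture arrays were above both stalk arrays for Atp5g3 alone, with log2 fold changes of -0.06 ± 0.38 (SE), -0.50 ± 0.44 (SE) and 1.17 ± 0.50 (SE) for Atp5g1, Atp5g2 and Atp5g3, and none of the 3 passed the test (adjusted p = 0.916, 0.388 and 0.0902). Atp5md, a small membrane subunit of the synthase, rose in Wnt1 culture over stalk. It read 11858 and 28851 in Wnt1 culture, 9987 and 6299 in control culture, 7157 and 3934 in tip and 5891 and 3754 in stalk, and the Wnt1 culture arrays were the 2 highest, with 1.97 ± 0.49 (SE) (adjusted p = 0.0233). In control culture its value was 0.75 ± 0.49 (SE) (adjusted p = 0.25).

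Complex IV lay above 0 as a whole with the deposited scaling, but not with the others. All 19 genes had a positive log2 fold change in both culture comparisons, with medians of 1.12 in Wnt1 culture and 1.08 in control culture over stalk. With quantile normalization 14 of 19 were above 0 in each, and when centred 13 of 19 in Wnt1 culture and 8 of 19 in control culture. Of the 10 genes for subunits common to most tissues, 1 rose in control culture over stalk, Cox6c, a small membrane subunit, with 1.65 ± 0.48 (SE) (adjusted p = 0.0291). Cox4i1, the main form of the largest nuclear subunit, read 30775 and 46598 in Wnt1 culture and 33165 and 26743 in control culture, against 18800.4 and 16106 in stalk. Cox6a1 and Cox6b1, the widely used forms of the small subunits 6a and 6b, had 1.11 ± 0.47 (SE) and 1.23 ± 0.49 (SE) in control culture (adjusted p = 0.093 and 0.0782). Cox7a2, the widely used form of subunit 7a, had 0.72 ± 0.51 (SE) (adjusted p = 0.292), Cox8a 0.29 ± 0.62 (SE) (adjusted p = 0.731) and Ndufa4 0.08 ± 0.42 (SE) (adjusted p = 0.898). Cultured arrays of Cox4i1 were all above stalk, although its test was not passed (adjusted p = 0.197 in control culture).

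The other complex IV genes were isoforms of restricted use and the relatives Ndufa4l2 and Cox7a2l. Cox7a2l read 9037 to 17641 over the 8 arrays, so it was bright in every group. This class held 4 of the 5 complex IV genes called in control culture over stalk. That was 44.4% of the 9 such genes, against 17.1% of all genes. Cox4i2, Cox7a1, Cox7b2 and Cox8b among the 9 entered the test only through their cultured arrays. Cox8b and Cox7b2 are among the 4 called, so their calls, and the share that counts them, support nothing. With quantile normalization 0 of these 9 isoforms and relatives was called in either culture comparison by limma. When centred 0 was called in control culture and 1 in Wnt1 culture, against 4 in each with the deposited scaling. In Wnt1 culture the 4 were again 44.4%, against 9.35% of all genes, with Cox8b among them, so that share likewise supports nothing. Cox6a2, the heart and muscle form of subunit 6a, read 881 and 431 in Wnt1 culture, 408 and 584 in control culture, 155 and 127 in tip and 68.4 and 67.8 in stalk. Cox8b, a heart and muscle form of subunit 8, read 494 and 197 in Wnt1 culture, 538 and 272 in control culture, 12 and 11.9 in tip and 74.8 and 20.5 in stalk. Cox8c, a testis form of the same subunit, read 1603 and 526 in Wnt1 culture, 916 and 765 in control culture, 152 and 293 in tip and 244 and 171 in stalk. All cultured arrays were above all uncultured arrays for these 3 genes. For Cox6a2 and Cox8c the log2 fold changes in Wnt1 culture over stalk were 2.56 ± 0.49 (SE) and 1.96 ± 0.52 (SE) (adjusted p = 0.0096 and 0.028), and in control culture over stalk 2.25 ± 0.49 (SE) and 1.82 ± 0.52 (SE) (adjusted p = 0.012 and 0.0262). Cox7b2, a testis form of subunit 7b, read 206 and 41.4 in Wnt1 culture, 313 and 146 in control culture, 18 and 7.74 in tip and 37.9 and 4.74 in stalk. Cox8b and Cox7b2 passed the filter only through their cultured arrays, so their values are a description with no test, 2.29 and 2.04 in control culture over stalk. Cox6b2, the testis form of subunit 6b, passed the threshold in Wnt1 culture over stalk, with 1.44 ± 0.44 (SE) (adjusted p = 0.0449), against 1.08 ± 0.44 (SE) in control culture (adjusted p = 0.0842); the difference between them was 0.36 (adjusted p = 0.903).

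These isoform values came from weak signals. Cox6a2, Cox6b2, Cox7a1, Cox7b2, Cox8b, Cox8c, Cox4i2 and Ndufa4l2 were among the 11 members below 299, the highest array median, on every tip and stalk array, and Cox4i2 was below it on all 8. With every value raised to at least that floor, the log2 fold change in control culture over stalk was 0.64 for Cox6a2, 0.38 for Cox8b and 0.03 for Cox7b2. Cox7a1, the heart and muscle form of subunit 7a, read 77.7 and 284 in Wnt1 culture and 459 and 146 in control culture, against 55.3 and 56.9 in stalk and was not called (adjusted p = 0.0769 in control culture). Cox4i2, a form linked to low oxygen in lung, had 0.12 ± 0.59 (SE) (adjusted p = 0.891). Ndufa4l2 had 0.68 ± 0.70 (SE) (adjusted p = 0.469), and Cox7a2l, which joins complexes III and IV, 0.30 ± 0.42 (SE) (adjusted p = 0.588). Markers of cardiac muscle, among those of other cell types, were also higher in culture. Their summed signal was 10150 to 10595 in Wnt1 culture and 6802 to 8931 in control culture, against 1897 to 2147 in tip and 1462 to 2001 in stalk. Of the 9 tested, 5 rose in each culture comparison over stalk and none fell, against 9.35% of all genes higher in Wnt1 culture and 17.1% in control culture. Nppa, Nkx2-5, Ttn, Myh6 and Myh7 were among those that passed the filter only with cultured arrays counted. Calls of such markers support nothing. The median log2 fold change of the 9 cardiac markers in control culture over stalk was 1.90, against 1.77 for macrophage, 1.36 for epithelial and 1.35 for neural markers. Each of these lists held markers that passed only with cultured arrays counted, Fcgr1, Nkx2-1 and Tubb3 among them. These medians are therefore a description and support nothing. Of the 11 markers measured, 4 were above the floor on both Wnt1 culture arrays, 5 on both control culture arrays, and 2 on both arrays of tip and of stalk. Tnnt2, the cardiac troponin T gene, read 1329 and 2606 in Wnt1 culture and 1325 and 1148 in control culture, against 214 and 153 in tip and 256 and 176 in stalk, while Myh6, a cardiac myosin heavy chain, was below the floor on all 8 arrays. Their part in the isoform values was not tested.

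Probe sets of the same gene often disagreed in culture. Among 37 members with at least 2 probe sets above the floor on every array, a restriction chosen after the values were seen, the log2 fold changes of control culture over stalk had opposite signs in 16 and differed by more than 1 in 13. Between tip and stalk the differences were smaller, with a median spread of 0.13, against 0.88 for control culture over stalk. The probe set with the highest mean, which stands for the gene here, had a median of 0.70 in control culture over stalk, against 0.30 for the other 53 probe sets, 41 of which lay below it. Cox6c was called with 1.65 by its highest probe set and had -0.37 by the other. Uqcrc2 had -0.52 and -1.50, Sdha -0.81 and -0.88, with a dimmer probe set at 2.16, Sdhc -0.46 and 0.98, and Sdhd -1.42 and 0.71. Over all 158 member probe sets past the filter, 22 were called higher in control culture over stalk, or 13.9% against a background of 13.1%, and 5 lower, or 3.16% against 7.38%. In Wnt1 culture 18 were called higher, or 11.4% against 5.48%, and 0 lower, against 4.97%. No gene had probe sets called in both directions. Signals of subunit genes with close processed copies elsewhere in the genome are uncertain, since the array cannot always tell copies apart. The part of such copies in these values was not tested. Without probe sets of the _x_at and _s_at suffixes, 11 of the 15 genes called higher in control culture over stalk stayed measurable. Of these 11, 10 were still called.

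**Figure D4:**
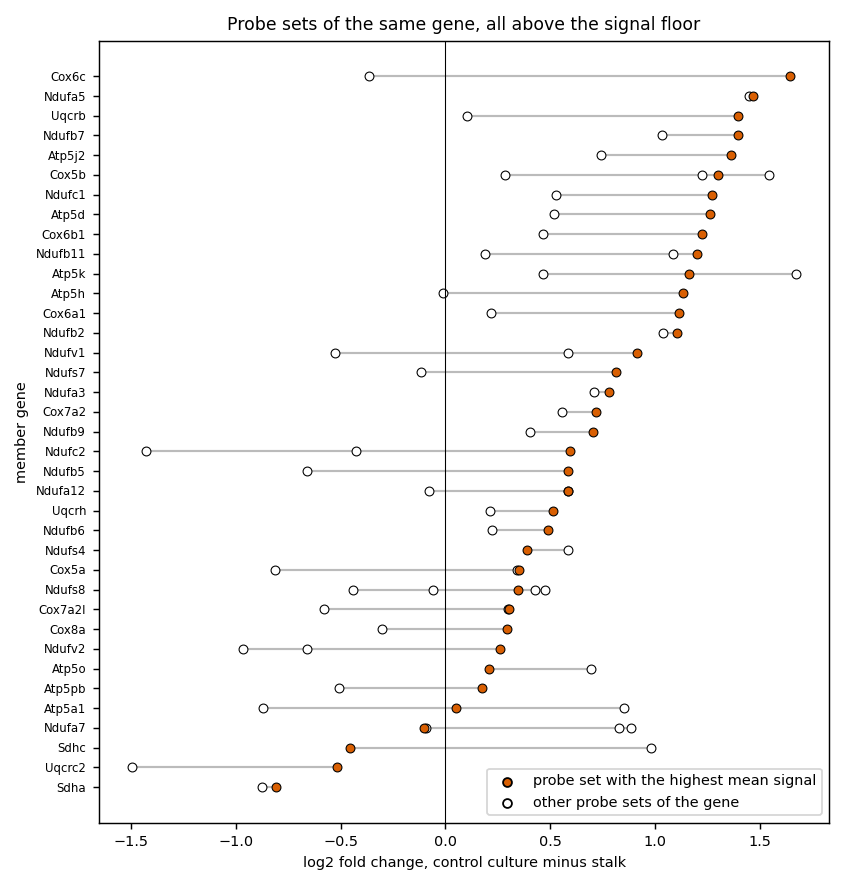
Log2 fold change of control culture over stalk for each probe set of the 37 genes with at least 2 probe sets above the floor on every array; the filled point is the probe set with the highest mean signal. Lines cross 0 for 16 genes, Cox6c among them.

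Wnt1 and control medium gave no called member. The members had 7 unadjusted p under 0.05, all with higher signal in Wnt1 culture, and the smallest adjusted p was 0.553, while all genes had 0 calls by limma, a background of 0% in each direction, and 1297 unadjusted p under 0.05. The median member log2 fold change of Wnt1 culture over control culture was 0.24, against -0.08 over all genes, and 67 of 81 were above 0. Both Wnt1 culture arrays exceeded both control culture arrays in 10 members, or 12.3% against a background of 10.1%, and lay below in 1, or 1.23% against 15.9%. The 3 members with the smallest p were Uqcrfs1, Atp5b and Ndufs1, with 1.16 ± 0.40 (SE), 1.11 ± 0.41 (SE) and 1.01 ± 0.37 (SE) and adjusted p of 0.553, 0.554 and 0.554. These are the 3 members that fell in control culture over stalk, and both comparisons use the control culture arrays.

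Most of this difference came from Wnt1 culture replicate 2. Wnt1 culture replicate 2 had the highest signal of all 8 arrays in 54 of 81 members, and Wnt1 culture replicate 1 in 6. Set against control culture replicates 1 and 2, the median member difference was 0.60 and 0.69 for Wnt1 culture replicate 2, and -0.19 and -0.02 for Wnt1 culture replicate 1. Without Wnt1 culture replicate 2 the median over control culture was -0.08, and without replicate 1 it was 0.60. The Actb 3' to 5' ratio was 6.81 on Wnt1 culture replicate 2, 21.2 on replicate 1 and 23.3 and 24.4 in control culture. The Gapdh ratio did not set replicate 2 apart, with 9.93 on replicate 2, 9.73 on replicate 1 and 10.5 and 17.8 in control culture. The part of RNA quality in the member signals was not tested.

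**Figure D5:**
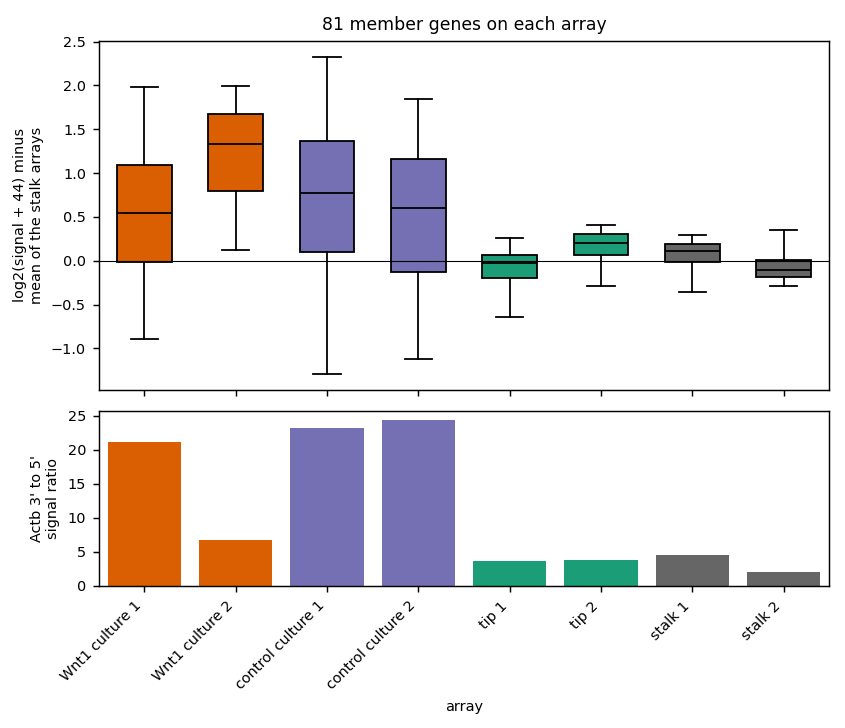
Top, boxes give the median and quartiles over the 81 members of log2(signal + 44) minus the mean of the stalk arrays, with whiskers from the lowest to the highest 5%; bottom, bars give the Actb 3' to 5' signal ratio. Wnt1 culture replicate 2 has the highest member median, 1.33, and the lowest ratio of the cultured arrays, 6.81.

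Other groups of energy and translation genes were counted for setting, against 17.1% of all genes called higher and 9.26% lower in control culture over stalk. Of 18 genes for the citric acid cycle and pyruvate dehydrogenase, which supply the chain with NADH and succinate, 4 fell, or 22.2%, and none rose in control culture over stalk, with a median log2 fold change of -0.78, below 0 under all 3 scalings. Dld, a subunit shared by the dehydrogenase complexes, had -2.62 ± 0.44 (SE; adjusted p = 0.00525). Of 16 regulators of mitochondrial biogenesis 3 fell, or 18.8%, and none rose there, Gabpa with -1.97, Tfam, which packs and transcribes mitochondrial DNA, with -2.06, and Polrmt, its RNA polymerase, with -1.53. Of 42 assembly factors 2 rose, or 4.76%, and 1 fell (Lrpprc, -1.41), or 2.38%, with a median of -0.07. Of 10 electron carriers and feeders only Etfb rose, by 1.40, of 76 mitochondrial ribosomal proteins 3 rose, or 3.95%, and 6 fell, or 7.89%, and of 21 import genes none was called by limma, with 4 higher and 1 lower at unadjusted p under 0.05. Cytosolic ribosomal protein genes had 22 of 46 called higher, or 47.8%, and none lower, with a median of 1.44 as deposited, 0.25 when centred and 0.16 with quantile normalization. Of 15 glycolysis genes 2 rose, or 13.3%, Aldoc (1.89) and Slc16a3 (1.96), and of 13 hypoxia-induced genes 2 rose, or 15.4%, Adm (2.70) and Car9 (1.91). With quantile normalization the citric acid cycle had 1 gene called lower, the biogenesis regulators 0 by limma and the mitochondrial ribosome 1, and the cytosolic ribosome 4 called higher. When centred, 13, 9 and 23 of the first 3 lists were called lower and 0 of the cytosolic ribosome higher. In Wnt1 culture over stalk, against 9.35% and 6.88% of all genes, the numbers called higher and lower were 0 and 1 for the citric acid cycle, 0 and 2 for the biogenesis regulators, 1 and 1 for the assembly factors, 1 and 0 for the carriers, 5 and 1 for the mitochondrial ribosome, 1 and 0 for import, 10 and 0 for the cytosolic ribosome, 0 and 2 for glycolysis and 2 and 0 for hypoxia. No gene of these 9 lists was called in tip over stalk or in Wnt1 culture over control culture, where all genes together had 91 and 1297 unadjusted p under 0.05.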

How the data were processed

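RNA from the dissected tissue was amplified with a two-cycle cDNA kit and hybridised to Affymetrix mouse arrays, per the labels' protocols. The deposited values are linear MAS5 intensity per probe set, for which the submitters' processing notes name Affymetrix Expression Console. Each array's trimmed mean is 500. A genome build was not given in the sources used here. Probe sets were named from the platform annotation: 34945 had 1 symbol, 932 several and 9160 none, and 64 were control probe sets. All 81 member symbols matched RefSeq, and 9 probe sets with several symbols that fit the rule were left out.

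Only probe sets with 1 symbol and a signal over 96.6 (the 40th percentile) on 2 or more arrays entered the test, and the probe set of highest mean stood for its gene. log2(signal + 44) was fitted with limma 3.58.1 (lmFit and eBayes with an intensity trend, R 4.3.3) on all 8 arrays, so the groups share 1 estimate of the spread. The pseudocount of 44 is the 25th percentile and understates changes of dim genes. P-values are two-sided, adjusted by Benjamini-Hochberg over 16112 genes, and called under 0.05. The fit was tested on simulated data. An exact permutation test of 2 against 2 arrays cannot go below a p of 0.33 and was not used. The signal floor of 299 is the highest array median.

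The members and gene lists were chosen with earlier results of these data known. Named genes are, per comparison and direction, up to 8 members past the threshold with the largest change, or the 3 smallest p where fewer than 3 passed, plus the isoform pairs of complex IV and the c ring, the Sdh genes and Atp5b; other named genes were chosen after their values were seen. The labels do not say whether replicate numbers pair the arrays, and the main fit used no pairing. Deviations of same-numbered arrays correlated from -0.08 to 0.30 between groups, highest between control culture and Wnt1 culture. These values do not show whether same-numbered arrays shared a litter or day. Alternatives covered the pseudocount, filters, scaling, probe set choice, model options, a replicate block and each array left out.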

Additional observations from a re-analysis of the deposited data

How the results depend on the processing

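Counts of 0 members called in tip over stalk and in Wnt1 culture over control culture held in every alternative run. For control culture over stalk the median member log2 fold change of 0.68 became -0.51 with arrays centred on their medians, 0.47 with the lowest-mean probe set (an alternative chosen after seeing the data), 0.44 with quantile normalization, 0.50 with values raised to the signal floor, 0.49 without _x_at and _s_at probe sets and 0.55 to 0.78 with 1 array left out. The 15 members called higher became 0 when centred, 5 at the floor, 2 at an adjusted p of 0.01 and 0 to 29 with 1 array left out. The 3 called lower became 7 when centred, 5 with array quality weights, with the lowest-mean probe set, with the mean of the probe sets and with the replicate number as a block, 1 at the floor and at an adjusted p of 0.01, and 0 to 6 with 1 array left out; the block also gave 19 called higher. For Wnt1 culture over stalk the median of 0.95 became -0.0295 when centred and 0.55 to 1.33 with 1 array left out. The 14 called higher became 1 when centred and at an adjusted p of 0.01, 24 with the filter set above the highest array median and with the replicate block, 7 with the lowest-mean probe set and with only the 2 groups compared in the fit, 0 at the floor and 0 to 25 with 1 array left out. The 1 called lower, Ndufs1, became 0 with array weights, every probe set tested, the lowest-mean probe set, no intensity trend, quantile normalization, the floor and an adjusted p of 0.01, and 0 to 1 with 1 array left out. With the lowest-mean probe set Sdha turned to 2.16 in control culture over stalk and Uqcrq to -0.0023 in Wnt1 culture over stalk. For the named genes that were called, 345 of the recomputed values kept direction and call, 132 kept direction but lost the call and 1 turned; of the uncalled, 1753 kept their side, 26 gained a call in the same direction, 1 turned with a call, and 117 changed sign without one. The replicate block is no pairing from the labels, since only the numbers are shared. Where a group kept 1 array, it was assumed to vary like the others. Causes of these changes were not tested. Signal over background limits the restricted isoforms, since 11 members were below the floor on every uncultured array.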
